A study of Solanum tuberosum with 9 samples.

Results

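Potato tubers stored for 40 days with or without rosemary essential oil were compared through 6 of the 9 RNA sequencing libraries of the series. The 6 were chosen by their labels, with earlier results of these data known. The 3 libraries from tubers at day 40 under fumigation with the oil (REO) were set against the 3 from control tubers at day 40, over all 34239 gene models, of which 22638 had enough counts to be tested. The remaining 3 libraries, from control tubers at day 0, entered the low-count filter, the scaling and the estimate of the spread. They also served as a baseline level. All tubers were commercially bought mature tubers of the cultivar Keshan, divided into the 2 treatments at the start of a 100-day storage and kept sealed in the same controlled environment. The sources do not state the oil dose, the part of the tuber sampled or how many tubers went into a library. The libraries of a group are described as biological replicates, and p-values below refer to the spread among them, which may be technical.

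A mature potato tuber is a swollen stem that carries dormant buds, and sprouting begins when those buds leave dormancy and draw on the stored starch and protein. Rosemary oil is a volatile mixture rich in monoterpenes such as cineole, camphor and pinene, and plant oils of this kind are used as vapours to hold back sprouts in storage. Plant genes for specialised metabolism and defence often lie in tandem arrays, where copies of 1 ancestral gene follow each other along a chromosome. The files name the gene models only by identifier, of which 0 were found in the table of potato genes at hand, so models are described without names, roles, sequences or tissue markers. The labelled tissue could therefore not be checked against its markers, and in whole tissue fewer cells of a type and less RNA per cell cannot be told apart.

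Total counts were 29330673 to 35577854 in the REO libraries and 31234314 to 36901701 in the control libraries of day 40. Control replicate 2 stood apart within its group: its Pearson correlations with control replicates 1 and 3, over log2 CPM (counts scaled to a common library total) of all tested models, were 0.916 and 0.898, where the 3 REO libraries correlated at 0.961 to 0.974. Its correlation with REO replicate 3 was 0.945. Results that rest on this library are given with and without it.

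Most of the gene models that edgeR called different between REO and control tubers at day 40 were higher with REO. With REO, 96 gene models were higher, 0.424% of those tested, and 8 were lower, 0.0353% (edgeR quasi-likelihood test over all 9 libraries, Benjamini-Hochberg adjusted p under 0.05). The called changes were large, which the choice of models by this test fixes in part. With 3 libraries a group, small changes could seldom be called, and the sizes of called changes may be overstated. The smallest called rise was 0.769 on the log2 scale, where the median standard error over all tested models was 0.272. Of the 96 higher models, 88 rose at least 2-fold, 55 at least 4-fold, 27 at least 8-fold and 9 at least 32-fold. The 8 lower models fell by 1.05 to 2.27 on the log2 scale, and 1 of them fell at least 4-fold. Over all tested models the median log2 fold change was -0.045, with quartiles of -0.25 and 0.15.

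**Figure D1:**
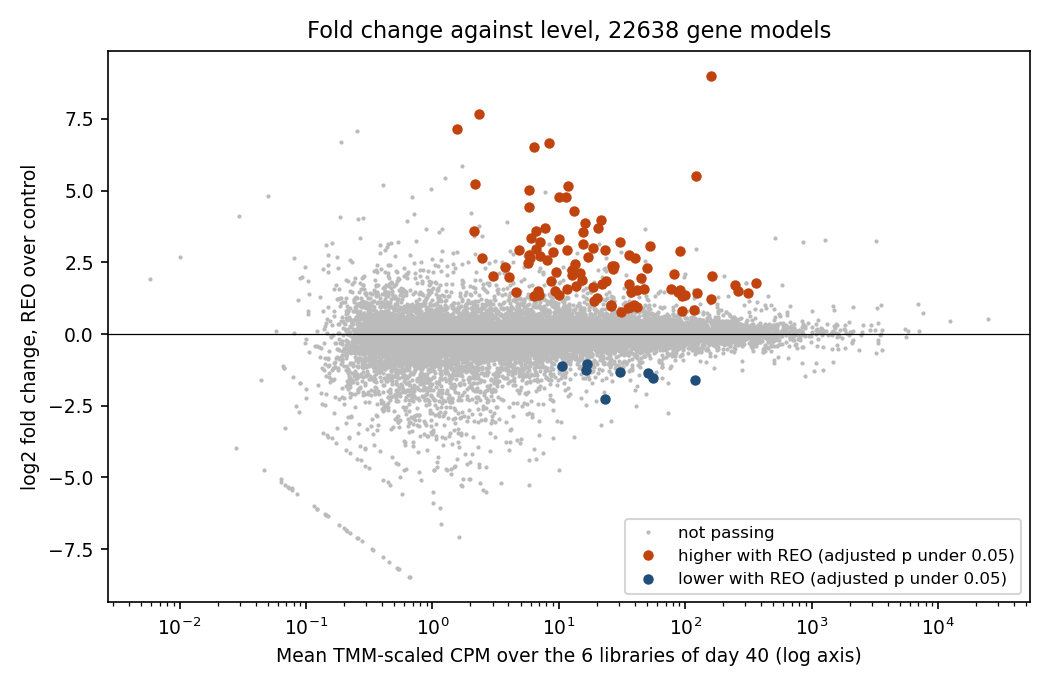
Log2 fold change of REO against control tubers at day 40 (vertical axis) by mean level in CPM over the 6 libraries (horizontal log axis), 1 point per tested gene model, with the 96 higher and 8 lower models marked. The higher models reach a log2 fold change of 9.00, the lower ones -2.27, and none lies under a mean of 1 CPM.

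Together the 96 higher models held 5641, 7253 and 6256 CPM in REO replicates 1, 2 and 3, against 1864, 1646 and 1885 CPM in control replicates 1, 2 and 3 of day 40. The day 0 libraries held 2174, 2115 and 2245 CPM of the same models. Per model, the mean level with REO ran from 3.11 to 559 CPM with a median of 28.3 CPM, and in control tubers of day 40 from 0.0169 to 173 CPM with a median of 5.05 CPM. The 8 lower models together held 158, 169 and 179.5 CPM with REO, against 359, 574 and 504 CPM in control tubers of day 40. Both sums separated the groups, which the choice of models by this contrast fixes in part.

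The largest called rise by fold was that of Soltu.DM.10G024690, on chromosome 10 by the number in its identifier. It stood at 238, 436 and 286 CPM in REO replicates 1, 2 and 3, against 0.846, 0.965 and 0 CPM in the control libraries of day 40. It was also under 1 CPM at day 0, with 0.280, 0.141 and 0.257 CPM, so all 6 control libraries lay far below the lowest REO library. Its log2 fold change was 9.00 ± 0.80 (SE), with a 95% interval of 7.20 to 10.80 (edgeR adjusted p = 0.00239).

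The largest called rise in CPM was that of Soltu.DM.09G004330, on chromosome 9, a model that was abundant in every library. Its values were 471, 666 and 539 CPM with REO, against 145, 137 and 208 CPM in control tubers of day 40. The lowest REO library was more than 2-fold above the highest control library of that day. The log2 fold change was 1.77 ± 0.23 (SE), with a 95% interval of 1.27 to 2.28, or 3.42-fold (edgeR adjusted p = 0.0155). At day 0 the model stood at 344, 249.9 and 294 CPM, between the groups of day 40 in all 3 libraries. The call was lost in 5 of 21 alternative analyses, over which the adjusted p of edgeR, DESeq2 or limma ran from 2.89e-12 to 0.0957.

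The largest called fall by fold was that of Soltu.DM.05G022980 on chromosome 5. It had 5.71, 6.57 and 11.6 CPM with REO, against 40.6, 42.8 and 32.4 CPM in control tubers of day 40. The day 0 libraries, at 37.2, 42.7 and 22.4 CPM, lay near the control level of day 40 and all above the REO libraries. Its log2 fold change was -2.27 ± 0.32 (SE), with a 95% interval of -3.00 to -1.55 (edgeR adjusted p = 0.0256).

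By number of CPM, the largest fall was that of Soltu.DM.09G023770, a chromosome 9 model. The REO libraries were close together at 59.7, 60.8 and 58.1 CPM, while the control libraries of day 40 were spread over 119, 233 and 189 CPM. At day 0 it had 123, 143 and 145 CPM, again in the range of the control tubers of day 40. The log2 fold change was -1.60 ± 0.23 (SE), with a 95% interval of -2.11 to -1.09 (edgeR adjusted p = 0.0255). The rise of Soltu.DM.10G024690 passed in all 21 alternatives, with an adjusted p (edgeR, DESeq2 or limma) of 8.89e-15 to 0.0249. Soltu.DM.05G022980 was lost in 7 of the 21, with an adjusted p (edgeR, DESeq2 or limma) of 1.87e-09 to 0.166, and Soltu.DM.09G023770 in 8, with 6.34e-09 to 0.161.

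**Figure D2:**
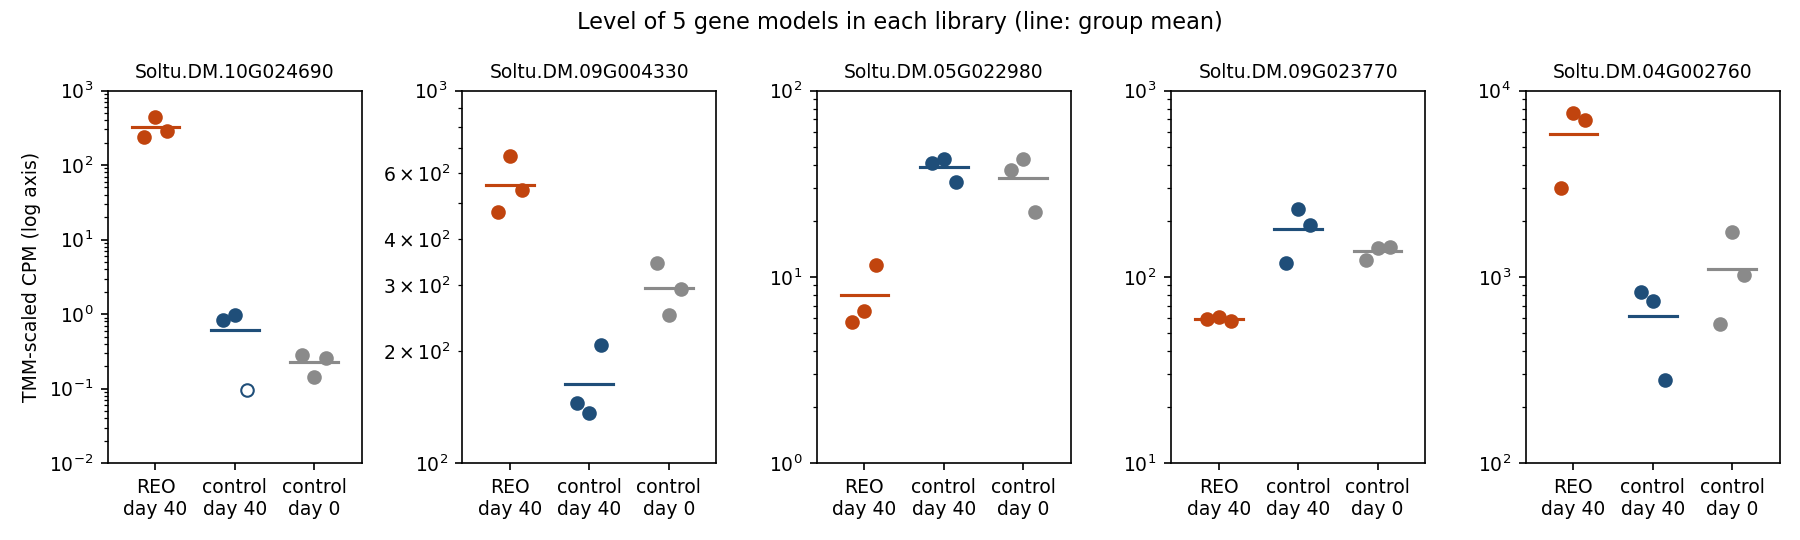
TMM-scaled CPM (vertical log axis) of 5 gene models in each library, with REO day 40 left of control day 40 and control day 0, 1 point per library and a line at the group mean. The fifth, Soltu.DM.04G002760, was not called and is described with the models of chromosome 4. Soltu.DM.10G024690 is at 238 to 436 CPM with REO and under 1 CPM in all control libraries, where an open circle at the floor of 3 counts stands for 0 counts. The falls of Soltu.DM.05G022980 and Soltu.DM.09G023770 leave no overlap with the control libraries of day 40.

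All 96 higher and all 8 lower models had no overlap between REO and control libraries. Such separation was common without a call. Over all tested models, 1703 had every REO library above every control library, 7.52%, and 1455 had every one below, 6.43%. The balance turned with the scaling: CPM by library size alone gave 1294 above and 2187 below, and the deposited FPKM gave 1233 above and 2344 below. Without control replicate 2 the counts were 3938 above and 4061 below, and without each of the other libraries of day 40 in turn they were 2088 to 2782 above and 1983 to 2618 below. A smaller group is separated more easily, so these counts rise by themselves and cannot be set against those of all libraries. The higher models were no tighter within the groups than other models. Their median coefficient of variation was 19.6% among REO libraries and 26.4% among control libraries, where all tested models had 15.2% and 23.3%.

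The REO libraries did not share the rise evenly. REO replicate 2 was the highest REO library in 57 of the 96 higher models, or 59.4%, against 27.8% of all tested models. REO replicate 1 was the lowest in 58, or 60.4%, against 39.7% of all. In 10 of the higher models, 10.4%, REO replicate 1 stood under 50% of the mean of the other REO libraries, a share that was 7.60% over all tested models. No cause of this order was tested.

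**Figure D3:**
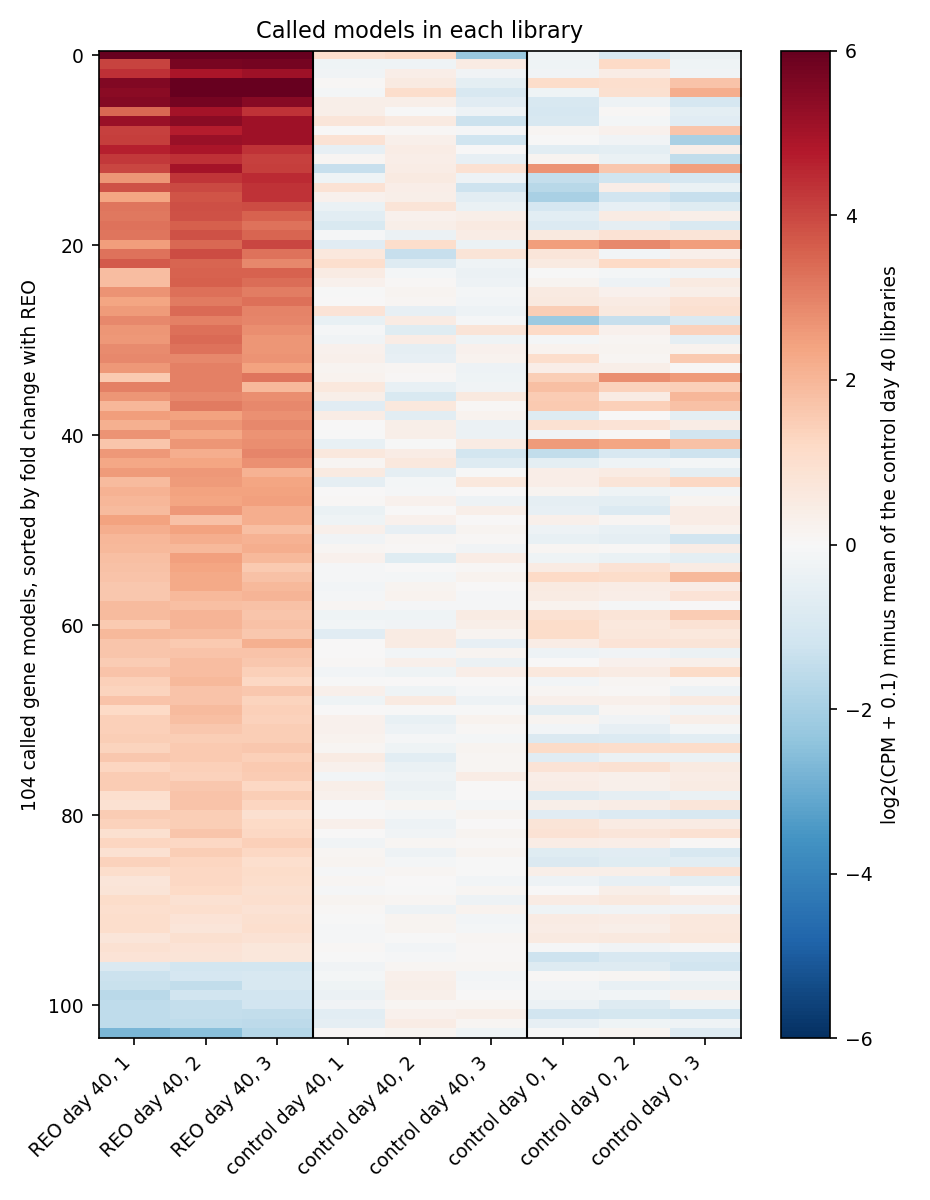
Level of the 96 higher and 8 lower gene models (rows) in the 9 libraries (columns, REO day 40, control day 40 and control day 0 from left to right), as log2(CPM + 0.1) minus its mean over the control libraries of day 40. The higher models are above 0 in the REO libraries, with REO replicate 2 the highest in 57 of the 96, and the lower models are below 0.

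The rises started from very different levels. In 13 of the 96 higher models the control mean of day 40 was under 1 CPM. Of these, 2 had at most 3 counts in every control library of day 40, the floor taken here for a count that can be told from 0. A model on chromosome 12 had 468 counts over the REO libraries and 2 over the control libraries of day 40. Scaled to library size, that is a ratio of 262, with an exact 95% binomial interval of 72.1 to 2168. Its edgeR adjusted p of 0.0498 became 0.0538 without control replicate 2. That call lay at the threshold, and it was kept in 8 of 22 alternative analyses. A model on chromosome 7 had 307 counts against 2, a ratio of 172 with an interval of 47.1 to 1424. These intervals cover counting error only, and they are too narrow if both reads of a pair were counted, since a count of 1 was found 1998 times and a count of 2 was found 4901 times among the deposited values. No model (0) showed the mirror image, at or under the floor in every REO library and at 1 CPM or more in every control library of day 40.

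At the other end, 10 of the higher models and 1 of the lower ones had a mean of at least 100 CPM over the 6 libraries. One of these, on chromosome 3, had 377, 387 and 382 CPM with REO, against 119.9, 105 and 130.2 CPM in control tubers of day 40. It was chosen after its values were seen, for the small spread of its REO libraries. Its log2 fold change was 1.69 ± 0.14 (SE, edgeR adjusted p = 0.00182). Another 55 higher and 7 lower models had a mean of 10 to 100 CPM, and 31 higher models had 1 to 10 CPM. The models tested numbered 1882 at 100 CPM or more, 9100 at 10 to 100 CPM and 8316 at 1 to 10 CPM. These counts per level therefore follow in part from how many models were tested there.

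Some of the called rises lay beside each other along the chromosomes. Identifiers number the models of a chromosome in steps of 10, and models were counted as neighbours where their numbers differed by at most 50. Of the 94 higher models with a chromosome number, 19 had another higher model as a neighbour, or 20.2%, where 2.58% of all 21392 tested models with a chromosome number had a higher model that near. The 19 fell into 8 groups, 3 of them with 3 models and 5 with 2. They lay on chromosomes 2, 3, 4, 6, 9, 10 and 12, with a pair of groups on chromosome 4. None (0) of the 8 lower models had another lower model as a neighbour. With 8 models among 21392, such neighbours are rare by number alone, so this 0 cannot be set against the 19. Of the 9 models that rose at least 32-fold, 5 were in these groups. The sources do not say how reads of near-identical copies were divided, so values of neighbours may not be independent.

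The 3-model group on chromosome 10 stood between models that were not called. Its middle model stood at 140.1, 176 and 145 FPKM with REO (fragments scaled to model length and library total, a level per length), against 4.14, 4.47 and 1.98 FPKM in control tubers of day 40. The rise of 5.52 ± 0.34 on the log2 scale (SE) had an edgeR adjusted p of 0.000561. The model before it had 10.1, 12.4 and 10.2 FPKM with REO against 0.450, 0.414 and 0.0680 FPKM. All 3 members were thus raised in every REO library, and the middle one was far more abundant than those beside it. The model after it had 6.89, 7.94 and 6.56 FPKM with REO against 0.349, 0.466 and 0.205 FPKM. The log2 fold changes of the outer models were 5.16 ± 0.53 and 4.44 ± 0.48 (edgeR adjusted p = 0.00498 and 0.00681). The tested models next to the group were at log2 fold changes of -0.43 to 0.25 and were not called.

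The group on chromosome 12 had a different pattern across the libraries. Its first model had 13.8, 37.9 and 57.2 FPKM with REO against 3.31, 3.84 and 1.68 FPKM in control tubers of day 40. The second had 14.6, 47.2 and 55.5 FPKM with REO against 2.001, 3.85 and 1.88 FPKM. In both, REO replicate 1 lay well below the other REO libraries while staying above every control library. The third member is the model that had 2 counts in control tubers, with 2.49, 8.50 and 8.86 FPKM with REO against 0, 0 and 0.0782 FPKM. The log2 fold changes of the first pair were 3.68 ± 0.51 and 3.99 ± 0.48 (edgeR adjusted p = 0.0239 and 0.0115).

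The pair on chromosome 6 shared the low value of REO replicate 1. Its members had 21.3, 73.1 and 73.9 FPKM, and 18.2, 64.3 and 55.9 FPKM, with REO. In control tubers of day 40 they had 8.63, 5.76 and 4.49 FPKM, and 6.34, 5.89 and 4.17 FPKM. The 3 uncalled models near this pair had log2 fold changes of 0.618 to 3.15. Of these, 2 were higher at an unadjusted edgeR p under 0.05. Of the 10 higher models in which REO replicate 1 stood under 50% of the others, 5 belong to the 8 groups. The pair on chromosome 9 rose in all REO libraries, with 10.5, 20.7 and 15.9 FPKM against 0.133, 0.258 and 0.0593 FPKM for the steeper one. That model's log2 fold change was 6.65 ± 0.48, and its partner's was 4.76 ± 0.39 (SE, edgeR adjusted p = 0.00103 and 0.00182). The 6 uncalled models near the pair on chromosome 9 had log2 fold changes of -0.225 to 2.13. Of these, 3 were higher at an unadjusted edgeR p under 0.05.

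On chromosome 2 the rise was smaller and started from a higher level. The more abundant member of that pair had 171, 169 and 139 FPKM with REO against 77.0, 68.4 and 69.6 FPKM in control tubers of day 40 (log2 fold change 1.23 ± 0.15 SE, edgeR adjusted p = 0.0133). The steeper member of the pair on chromosome 3 had 5.47, 8.91 and 11.8 FPKM with REO, against 0.0372, 0.221 and 0 FPKM in control tubers of day 40. The log2 fold changes of that pair were 6.52 and 4.79 (edgeR adjusted p = 0.0301 and 0.0262). The second group on chromosome 4 was a pair with log2 fold changes of 2.14 and 2.59.

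**Figure D4:**
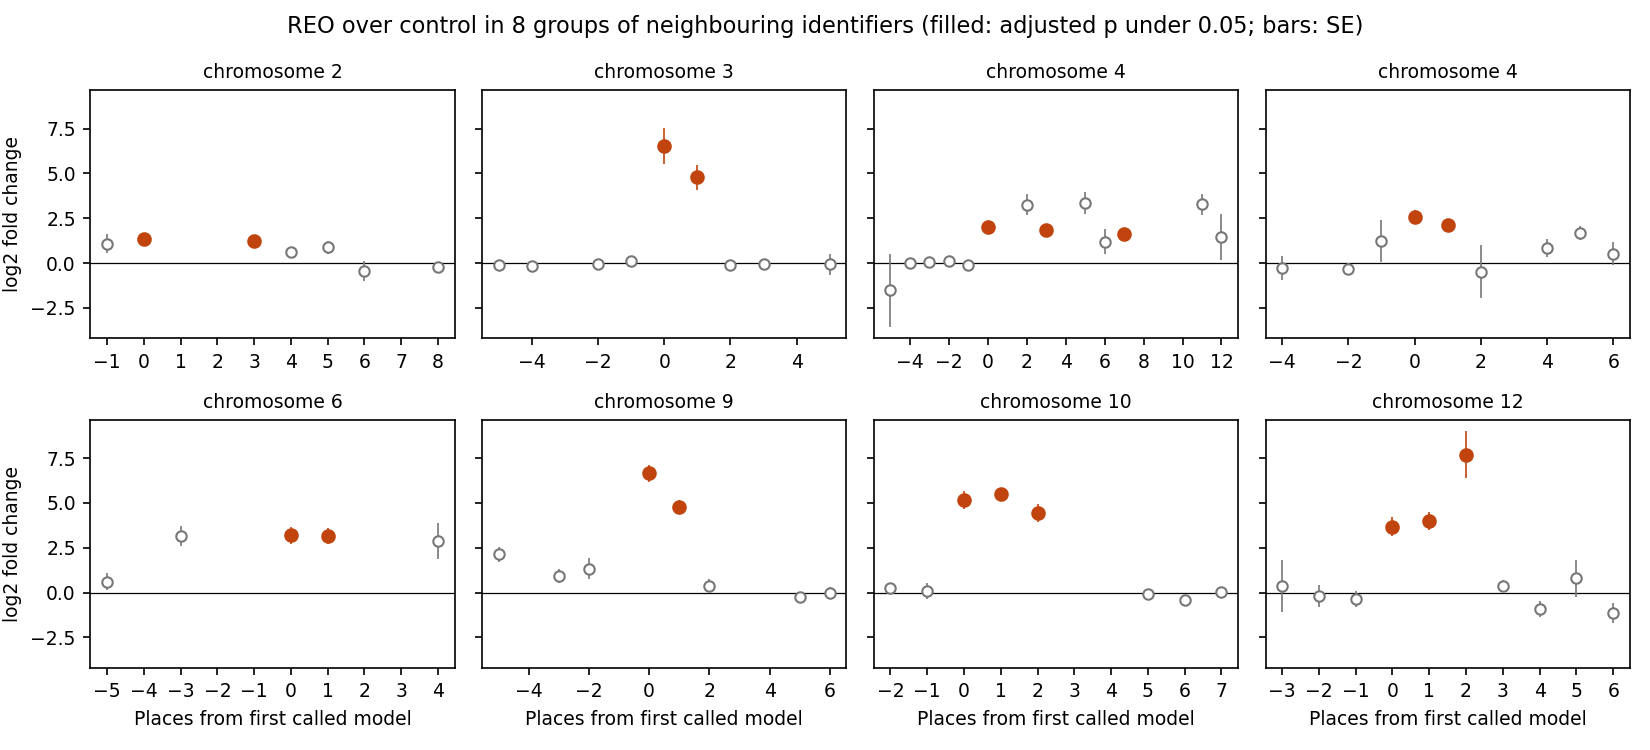
Log2 fold change of REO against control tubers at day 40 (vertical axis) for tested gene models by their place in the identifier numbering around the groups of neighbouring higher models, with called models marked. On chromosome 10 the 3 called models stand at 4.44 to 5.52 between uncalled models at -0.43 to 0.25, and on chromosome 4 the called models at 1.64 to 1.99 alternate with uncalled ones at 3.24 to 3.35.

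Uncalled models near a called one moved with it in a minority of cases. There were 533 uncalled models within the same distance of a higher model. Their median log2 fold change was 0.023, against -0.046 over all tested models with a chromosome number. A rise of at least 2-fold was seen in 41 of them, or 7.69%, against 3.03% of all tested models. An unadjusted edgeR p under 0.05 with a rise was reached by 52, or 9.76%, against 4.40% of all. As a description over the 14336 pairs of models with consecutive numbers, log2 fold changes correlated at a Pearson r of 0.21 and a Spearman rho of 0.15, while models 500 places apart on a chromosome correlated at 0.0027. Pairs share libraries, and neighbours may share reads.

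The 3-model group on chromosome 4 was interleaved with far more abundant models that were not called. The 3 called members had log2 fold changes of 1.64, 1.83 and 1.99, with a coefficient of variation of 13.5% to 24.2% among REO libraries. Without control replicate 2, the one at 1.99 had an edgeR adjusted p of 0.0534. Between and beside them lay 3 abundant models with log2 fold changes of 3.24, 3.27 and 3.35 and edgeR adjusted p of 0.0606, 0.0654 and 0.0674. The abundant models rose more on average than their called neighbours, but varied by 40.8% to 48.0% among REO libraries.

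The most abundant of the 3 was Soltu.DM.04G002760, which had the largest difference in CPM of all models whose groups did not overlap and was chosen after its values were seen. It stood at 3009, 7576 and 6966 CPM with REO, against 831, 746 and 278 CPM in control tubers of day 40. At day 0 it had 560, 1741 and 1022 CPM, overlapping the control libraries of day 40 and below every REO library. The log2 fold change was 3.24 ± 0.58 (SE), with a 95% interval of 1.92 to 4.56, and the edgeR adjusted p of 0.0606 missed the threshold. DESeq2 gave an adjusted p of 2.26e-08 for it, and edgeR without control replicate 2 gave 0.0743.

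The 3 abundant models summed to 4653, 11778 and 10812 CPM with REO, against 1288, 1144 and 413 CPM in control tubers of day 40. They moved together in all 9 libraries. The FPKM of Soltu.DM.04G002760 was 2.47 to 2.92 times that of the next and 5.90 to 7.05 times that of the third, while its own level ran from 322 to 8558 FPKM. Whether reads were shared between near-identical copies was not tested.

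None (0) of the 100 most abundant models, those with a mean of at least 844 CPM, passed the edgeR test, which called 0.459% of all tested models. At an unadjusted edgeR p under 0.05 there were 11 of the 100, where 7.80% of all tested models passed. DESeq2 called 5 of them, where it called 2.36% of all models with an adjusted p. At such a share, 0 calls among 100 models is near the background. Of the 100, 14 had all REO libraries above the control libraries and 2 had them all below. Over all tested models these shares were 7.52% and 6.43%. These models took 28.2%, 23.5% and 23.5% of the CPM in the REO libraries, against 21.7%, 20.2% and 23.0% in the control libraries of day 40. A ranking by difference in CPM favours separation by itself. Of the 20 models with the largest such difference, 14 were higher with REO and 9 had groups without overlap. Of the 14, 5 had an identifier added by the submitters, each highest in REO replicate 1 among the libraries of day 40. The largest stood at 47656, 25313.5 and 14943 CPM with REO, against 22180, 10589 and 28316 CPM in control tubers of day 40 (edgeR adjusted p = 0.971). Another 3 were the abundant models of chromosome 4. None (0) of the 20 was called by edgeR, with adjusted p of 0.0606 to 0.982, while 10 had an unadjusted p under 0.05 and DESeq2 called 6.

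The 8 lower models lay on chromosomes 3, 5, 6, 9 and 10. Their mean levels ran from 6.67 to 59.5 CPM with REO, against 14.5 to 180.0 CPM in control tubers of day 40. In 6 of the 8, control replicate 2 was the highest control library, and without it 3 of the 8 calls were lost (edgeR adjusted p of 0.0534 to 0.0638). The 3 on chromosome 5, Soltu.DM.05G022980 among them, fell by 1.12 to 2.27 on the log2 scale. The model on chromosome 3 had an uneven control group, with 27.3, 29.7 and 28.4 CPM with REO against 52.3, 95.6 and 102.1 CPM in control tubers of day 40 (log2 fold change -1.55 ± 0.23, edgeR adjusted p = 0.0279). At day 0 this model had 36.3, 38.9 and 34.6 CPM, nearer to the REO level than to the control level of day 40.

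Higher models were found on every numbered chromosome, and made up 0.424% of all tested models. Chromosome 9 had 13 of them, 0.838% of its tested models, chromosome 4 had 12, or 0.601%, and chromosome 3 had 13, or 0.589%. The counts of chromosomes 9, 4 and 3 include groups of neighbours, which may not be independent. Chromosome 5 had 2, or 0.142%, the lowest share of the 12 chromosomes. The 1217 tested models with an identifier added by the submitters held 2 called ones, both higher, or 0.164%, against 0.477% called of the models with a chromosome number. One of them had 14.8, 15.1 and 7.01 CPM with REO against 2.80, 1.27 and 1.49 CPM in control tubers of day 40, and rose by 2.72 on the log2 scale (edgeR adjusted p = 0.0262). The 29 tested models on unplaced sequence, too few for that share to give 1, held none (0) called by edgeR or by DESeq2, and none (0) with an unadjusted edgeR p under 0.05.

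The day 0 libraries place the called models against the start of storage, with the reservation that the models were chosen by their distance from the control tubers of day 40. Of the 96 higher models, 46 had a day 0 mean within 1.5-fold of the control mean of day 40, or 47.9%, against 73.4% of all tested models. In 31 the day 0 mean was more than 1.5-fold above the control mean of day 40, and in 19 more than 1.5-fold below it. Of the 22570 tested models with counts in both of these groups, 2763 were that far above and 3248 that far below. In none (0) of the 96 did the day 0 mean reach the REO mean, and in 10 it came within 1.5-fold of it. One of those in which the day 0 level lay well above the control level of day 40 was a model on chromosome 3 with 340, 399 and 422 CPM with REO. It had 148, 112 and 152 CPM in control tubers of day 40 and 303, 279 and 288 CPM at day 0 (log2 fold change of REO against control at day 40 1.49 ± 0.17, edgeR adjusted p = 0.00704). Of the 8 lower models, 6 had a day 0 mean within 1.5-fold of the control mean of day 40.

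The precision of the comparison differed with the level of a model. The 95% interval of the log2 fold change lay within 2-fold in either direction for 13360 models, or 59.0% of those tested, and reached 4-fold in one direction or the other for 15.5%. Among the 3340 models with a mean under 1 CPM over the 6 libraries, 1.47% had so narrow an interval. The share was 47.2% at 1 to 10 CPM, 85.4% at 10 to 100 CPM and 85.8% above that. None (0) of these 3340 models under 1 CPM was called by edgeR. An unadjusted edgeR p under 0.05 was reached by 183 of the 3340, where 7.80% of all tested models had one. DESeq2 called 22 of the 3340, where it called 2.36% of all models with an adjusted p. A further 107 models were at least 4-fold higher and 79 at least 4-fold lower without overlap between the groups and without a call. Their median standard errors were 0.76 and 0.95 on the log2 scale, against 0.27 for the higher models that were called. DESeq2 called 61 of the 107 and 25 of the 79. Both sets were chosen for size and separation in these same libraries, so these calls are no independent support.

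Which test was used decided how many models were called. DESeq2 called 398 models higher, 1.77% of the 22495 for which it gave an adjusted p, and 132 lower, 0.587%. All 104 models called by edgeR were among them, as 19.6% of the DESeq2 list. At an unadjusted edgeR p under 0.05, 971 models were higher and 795 lower.

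The balance of larger differences rested on control replicate 2. With all libraries, 693 models were at least 2-fold higher with REO, or 3.06%, and 1261 at least 2-fold lower, or 5.57%, of the 22630 models tested with and without that library. Without it, 1668 were at least 2-fold higher, or 7.37%, and 494 at least 2-fold lower, or 2.18%. Control replicate 2 was the highest of the 6 libraries of day 40 in 83.9% of the 1261, against 31.4% of all tested models. The 1261 were chosen for a higher control mean, which raises that share by itself. Among the control libraries of day 40 alone, replicate 2 was the highest in 10007 of all 22638 tested models. The 1261 were mostly low models, with a median control mean of 1.79 CPM. The called models kept to one side either way: without control replicate 2, edgeR called 160 higher and 15 lower, and 87 of the 104 called with all libraries were among them.

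Every other library also moved the count of calls. Without control replicates 1 and 3 of day 40, edgeR called 63 and 37 models higher and 11 and 0 lower. Without REO replicates 1, 2 and 3 it called 52, 23 and 38 higher and 0, 0 and 3 lower. Without day 0 replicate 1, which belongs to neither group compared, it called 46 higher and 0 lower, and without day 0 replicates 2 and 3 it called 69 and 70 higher and 3 and 6 lower. In the 4 fits without a lower call, 425 to 1135 models were lower at an unadjusted p under 0.05. All 104 models kept their sign in all 9 fits that left out 1 library, which groups without overlap fix almost by themselves. Of the 96 higher models, 22 were called in all 22 alternatives that were counted and 81 in at least 11 of them. Of the 8 lower models, none (0) was called in all 22 and 5 were called in at least 11.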

How the data were processed

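Messenger RNA of potato tubers was sequenced in 9 libraries. The authors deposited whole-number counts per gene model and a second table read here from its values as FPKM, a unit the sources used here do not name. The submitters' processing notes list HISAT2 2.1.0 and DESeq2, without their role. Counter, genome build and annotation: not given in the sources used here. The labels' protocols describe no marking of the strand, and reads of overlapping or antisense models then cannot be told apart. No count column lacked a sample (0).

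The deposited counts were filtered with filterByExpr and fitted with edgeR 4.0.16 (R 4.3.3), with TMM scaling, 1 coefficient per group and all 9 libraries. REO at day 40 was tested against control at day 40, two-sided, with Benjamini-Hochberg adjustment at 0.05. CPM values are TMM-scaled, standard errors come from the F statistic and intervals from the degrees of freedom of the fit. The common biological coefficient of variation was 0.362. A floor of 3 counts corresponds to 0.0762 to 0.106 CPM at day 40 and covers counting error only. The counts of replicates differed beyond sampling noise (chi-square over degrees of freedom at least 36.6), so none was counted as a repeat. The fit was also run on simulated counts drawn without a divergent library or shared reads, and no result here rests on that run.

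Named models were those with the largest fold change and the largest difference in CPM in each direction, given a call, no overlap and a mean of at least 5 CPM in the higher group. Alternatives were DESeq2 1.42.0, limma 3.58.1 (voom, and log2(FPKM + 1) or log2(FPKM + 0.1), which understates the change of low models), other scalings, filters and thresholds, and leaving out each library. Members and rules were chosen with earlier results of these data known.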

Additional observations from a re-analysis of the deposited data

How the results depend on the processing

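The edgeR counts of 96 higher and 8 lower models changed by more than 1.5 times under several settings. DESeq2 gave 398 and 132, a fit of the 6 libraries of day 40 alone 39 and 1, an adjusted p under 0.10 170 and 23, an adjusted p under 0.01 29 and 0, and a test against a 1.5-fold change 47 and 0. At an unadjusted edgeR p under 0.05 there were 795 lower models. With limma, log2(FPKM + 1) and log2(FPKM + 0.1) each gave 17 lower models. Leaving out each library in turn gave 23 to 160 higher and 0 to 15 lower models. Other scalings and low-count filters kept both counts within 1.5 times. The cause was not tested.

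Samples with the same replicate number did not deviate together: the correlations of their deviations from the group means were 0.328, -0.285 and -0.557 between REO and control at day 40 for replicates 1, 2 and 3. With the replicate number as a block, edgeR called 43 higher and 1 lower, and 1558 models had an unadjusted p under 0.05.

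Of models without overlap between the groups, 1703 lay above and 1455 below. The balance reversed by library size alone, with 1294 above and 2187 below, and by the deposited FPKM, with 1233 and 2344. Leaving out each library gave 2088 to 3938 above and 1983 to 4061 below, where control replicate 2 of day 40 gave the highest of both and the others at most 2782 and 2618. Part of that rise comes from the smaller group, which is separated more easily. No named model changed sign under any alternative.

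The sources give no gene names, dose or tuber numbers, the 3 libraries a group leave wide intervals for models under 1 CPM, and counts of near-identical models are uncertain.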
